A study of Homo sapiens with 112 samples.

Results

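The response to the synthetic androgen R1881 after 22 h was set side by side in VCaP and LAPC4, both lines of human prostate cancer, gene by gene, as the difference between the R1881 effect in VCaP and the R1881 effect in LAPC4. A gene entered the comparison when 4 or more libraries of each line held 10 reads or more, which left 16578 of the 58684 genes listed. A further 2688 genes reached that minimum only in VCaP and 1626 only in LAPC4, and these were not compared. Both lines were first kept without hormone for 2 days, in 10% charcoal-stripped serum, and then received DMSO as vehicle or 1 nM R1881 for 22 h. There were 8 DMSO and 9 R1881 libraries of VCaP, and 7 DMSO and 10 R1881 libraries of LAPC4. Libraries of the same treatments harvested at 8 h (10 per group) served as separate samples in which the 22 h pattern was measured again. Both lines also had libraries of R1881 with 500 nM or 2 µM darolutamide, an antagonist of the androgen receptor. These entered the read minimum and the shared fit, and levels with 2 µM are given below. VCaP carries a fusion that places ERG under the promoter of TMPRSS2, and each condition is therefore modelled in 1 line with that fusion and 1 line that lacks it. The study describes fewer biological replicates per condition than there are libraries here, and the labels give replicate numbers only. Whether numbers 6 and above come from a separate experiment is not stated, so p-values measure the spread between these libraries, which may be partly technical.

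Androgens act through the androgen receptor, a steroid-bound transcription factor that moves to the nucleus, binds DNA elements near its target genes and recruits coactivators or corepressors. In luminal prostate cells it switches on secretory genes such as the kallikreins, lipid synthesis and protein export, and it can switch off growth and lineage genes. The pioneer factors and chromatin that a cell already has decide which of these elements the receptor can reach. Lines that both respond to androgen can therefore share some targets and not others. The comparison asks which genes responded in the same way, in opposite ways, or in 1 line only.

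The 34 libraries held between 12951648 and 23180161 counted reads, with a median of 19893290. ERG, the check of the line labels, had 1884 to 21554 reads in the VCaP libraries and 0 reads in all 17 LAPC4 libraries. The luminal markers KRT8, KRT18 and HOXB13 stood at 184 CPM or more in every library of both lines (CPM, reads per 1 M reads after normalization of library size). The other luminal markers were KLK3, with a lowest value of 17.3 CPM in VCaP and 11.9 CPM in LAPC4, and FOLH1, with 19.2 and 406 CPM. Of 13 markers of basal, fibroblast, endothelial and white blood cells, 11 stayed at or below 28 reads in every library. The exceptions were VWF, with up to 66 reads (3.04 CPM in LAPC4 and 3.5 CPM in VCaP at most), and LUM, with up to 33.4 CPM in VCaP and 4.38 CPM in LAPC4. No pair of libraries within a group agreed within sampling noise.

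R1881 moved many more genes in VCaP than in LAPC4, and for most genes the size of the response differed between the lines. At an adjusted p under 0.05 (quasi-likelihood test of edgeR, Benjamini-Hochberg adjustment over the 16578 genes), 12873 genes or 77.7% were called in VCaP, with 5932 up (35.8%) and 6941 down (41.9%). In LAPC4 the same test called 1967 genes or 11.9%, with 937 up (5.65%) and 1030 down (6.21%). The difference between the lines was called for 11349 genes, 68.5% of those tested, of which 5240 (31.6%) had the more positive response in VCaP and 6109 (36.9%) in LAPC4. Both lines were called at 1710 genes (10.3%). Of these, 1088 moved in the same direction (6.56% of all tested) and 622 in opposite directions (3.75%). A called difference was part of the definition of the opposite genes, and 0 genes called in both lines with opposite signs lacked it. With replicates 1 to 5 only, 311 genes were opposite, and with replicates 6 and above only (2 to 5 libraries per group) 79 were. The plot of VCaP against LAPC4 fold changes shows how flat the cloud is, since the median absolute log2 fold change over all genes was 0.47 in VCaP and 0.081 in LAPC4.

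**Figure D1:**
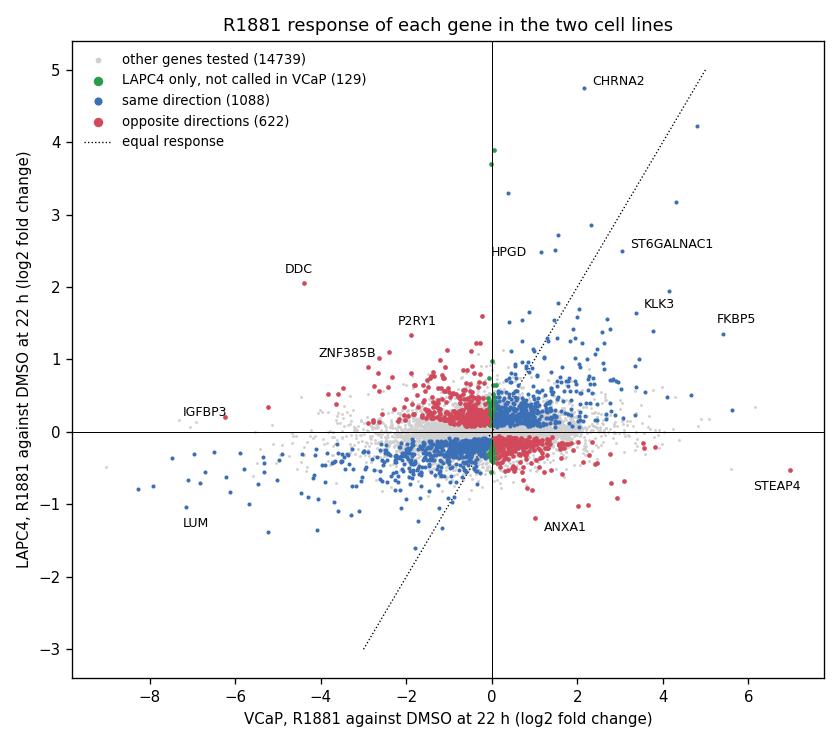
Each point is 1 of the 16578 genes tested, with the log2 fold change of R1881 against DMSO at 22 h in VCaP on the horizontal axis and in LAPC4 on the vertical axis. Red marks the 622 genes called in opposite directions, blue the 1088 called in the same direction and green the 129 with a LAPC4 response, a VCaP response bounded near 0 and no VCaP call, and the dotted line is an equal response, so the cloud lies along the VCaP axis.

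The opposite genes split into 285 that rose in VCaP and fell in LAPC4 (1.72%) and 337 that fell in VCaP and rose in LAPC4 (2.03%). Their LAPC4 responses were mostly small. In the first set the median log2 fold change was 0.49 in VCaP and -0.17 in LAPC4, and 62 genes exceeded 0.25 in size in both lines, 15 exceeded 0.5 and 3 exceeded 1. In the second set the medians were -0.54 and 0.24, and 145 genes exceeded 0.25 in both lines, 48 exceeded 0.5 and 5 exceeded 1. The 2 sets also differed in where the genes started. With DMSO alone, 204 of the 285 genes were higher in LAPC4 than in VCaP, whereas 233 of the 337 were higher in VCaP. Across all genes tested, 7995 were higher in VCaP and 8583 in LAPC4. Genes called in VCaP with a LAPC4 response bounded near 0 leaned the same way as the opposite genes. Of 3399 that rose in VCaP, 2249 were higher in LAPC4 with DMSO, and of 3112 that fell, 1867 were higher in VCaP. Because the DMSO libraries also enter the fold change, this starting level is given as a description only.

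P2RY1, a receptor for extracellular ADP, had the largest change in the weaker line among genes that fell in VCaP and rose in LAPC4 and had a mean above 1 log2 CPM (chromosome 3, 152835131 to 152841439, GRCh38). In VCaP it stood at 55.9 to 64.2 CPM with DMSO (median 59) and 14.2 to 18.2 CPM with R1881 (median 15.4). In LAPC4 it went from 4.86 to 7.35 CPM (median 6.94) to 14.8 to 17.4 CPM (median 16). The DMSO and R1881 libraries did not overlap in either line, and the lines, far apart without androgen, came to nearly the same level with it. The log2 fold changes were -1.89 ± 0.058 (SE) in VCaP and 1.34 ± 0.065 in LAPC4, with an adjusted p of 8.9e-59 for the difference.

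MYC, which encodes a transcription factor that drives growth and ribosome production, fell in VCaP from 338 to 389 CPM (median 381) to 53.2 to 66.6 CPM (median 57.6). In LAPC4 MYC rose from 10.5 to 12.6 CPM (median 11.1) to 17.2 to 22.9 CPM (median 19.8). No library of 1 treatment reached the range of the other in either line, and even with R1881 VCaP stayed above LAPC4. Its log2 fold changes were -2.65 ± 0.058 and 0.82 ± 0.069 (adjusted p of the difference 2.7e-60). ZNF385B, a zinc finger gene (chromosome 2, 179441982 to 179861612), followed the same course, from a median of 343 to 46 CPM in VCaP and from 15.1 to 27.3 CPM in LAPC4. ZNF385B changed by -2.89 and 0.89 on the log2 scale, and its groups did not overlap in either line.

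ETNK2, an ethanolamine kinase of phospholipid synthesis (chromosome 1, 204131062 to 204152044), all but exchanged its levels between the lines. It fell in VCaP from 6.15 to 7.53 CPM (median 7.2) to 2.56 to 3.94 CPM (median 3.41) and rose in LAPC4 from 3.11 to 4.3 CPM (median 3.96) to 5.35 to 8.2 CPM (median 7.12). Both steps were free of overlap, and the log2 fold changes of ETNK2 were -1.09 ± 0.095 and 0.90 ± 0.092 (adjusted p of the difference 1.7e-26). LAMA3, the alpha chain of an epithelial laminin, behaved alike, with medians of 34.9 and 13.6 CPM in VCaP and of 19.1 and 33.4 CPM in LAPC4. SLC9B2, a sodium and proton exchanger, fell in VCaP from 7.26 to 10.8 CPM (median 8.25) to 1.23 to 2.12 CPM (median 1.74). In LAPC4 SLC9B2 rose from 5.68 to 7.14 CPM (median 6.71) to 10.1 to 12.7 CPM (median 11.1), again without overlap. The differences between the lines were -2.21 ± 0.07 for LAMA3 and -3.10 ± 0.12 for SLC9B2 on the log2 scale.

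Among genes above the same level that rose in VCaP and fell in LAPC4, ANXA1 had the largest change in the weaker line. ANXA1 encodes annexin A1, a phospholipid-binding protein known for its induction by glucocorticoids (chromosome 9, 73151865 to 73170393). Without androgen the lines were level, at 14.1 to 18.6 CPM (median 17.4) in VCaP and 15.8 to 20.3 CPM (median 17.3) in LAPC4. With R1881, ANXA1 reached 32.3 to 38.8 CPM (median 34.1) in VCaP and dropped to 6.53 to 8.49 CPM (median 7.57) in LAPC4. DMSO and R1881 libraries did not overlap in either line, and the VCaP and LAPC4 ranges overlapped with DMSO but not with R1881. The log2 fold changes were 1.02 ± 0.062 and -1.19 ± 0.064, with an adjusted p of 4.1e-43 for the difference.

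SEMA3C, a secreted semaphorin (chromosome 7, 80742538 to 80922359), rose in VCaP from 17.8 to 23.5 CPM (median 20.5) to 52.9 to 76.9 CPM (median 64.9). In LAPC4 SEMA3C was higher throughout and fell from 161 to 193 CPM (median 177) to 102 to 133 CPM (median 119). The treatments did not overlap in either line, and the log2 fold changes were 1.64 ± 0.067 and -0.58 ± 0.058. STEAP4, a metalloreductase of the cell membrane, rose in VCaP from 7.58 to 8.93 CPM (median 8.46) to 956 to 1190 CPM (median 1040). In LAPC4 it moved from 17.7 to 24.2 CPM (median 21.8) to 12.7 to 17.9 CPM (median 15), where the groups overlapped slightly. For STEAP4 the log2 fold changes were 6.97 ± 0.072 and -0.53 ± 0.062 (adjusted p of the difference 4.45e-91).

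ACPP, which encodes prostatic acid phosphatase, rose in VCaP from 6720 to 7880 CPM (median 7230) to 11200 to 13300 CPM (median 11900). It fell in LAPC4 from 27.6 to 34.1 CPM (median 31.5) to 19.1 to 25.5 CPM (median 22), with no overlap in either line. ST3GAL1, a sialyltransferase, differed in the other sense of abundance, with a median of 2.69 and 3.97 CPM in VCaP against 230 and 160 CPM in LAPC4. Its VCaP groups overlapped while its LAPC4 groups did not. CISH, a feedback inhibitor of cytokine receptors, was low in both lines, moved from a median of 2.94 to 4.5 CPM in VCaP and from 3.05 to 2.22 CPM in LAPC4, and overlapped between treatments in both. The differences between the lines on the log2 scale were 1.21 ± 0.063 for ACPP, 1.06 ± 0.089 for ST3GAL1 and 1.03 ± 0.18 for CISH. With replicates 6 and above only, ST3GAL1 and CISH were no longer called in opposite directions.

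**Figure D2:**
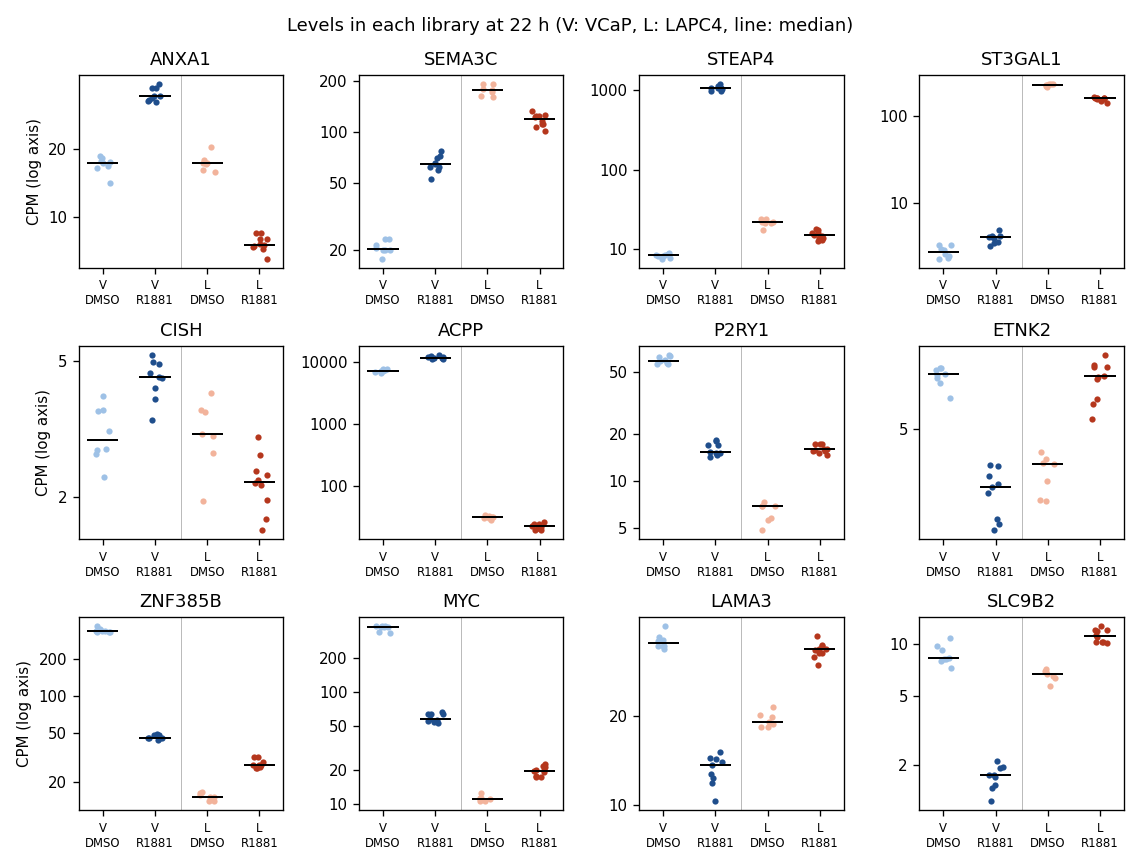
Each panel shows 1 of the 12 opposite genes with the largest change in the weaker line, in CPM on a log axis, with 1 point per library (8 and 9 VCaP libraries, 7 and 10 LAPC4 libraries) and a line at the median. ANXA1 starts level at 17.4 and 17.3 CPM and parts to 34.1 and 7.57 CPM, while P2RY1 starts at 59 and 6.94 CPM and meets at 15.4 and 16 CPM.

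The same genes were measured again at 8 h. Those libraries are no part of the 22 h contrasts, although they share the fit and its estimate of spread, and with only the 4 compared groups 550 of the 622 were opposite. Of the 622 opposite genes, 437 (70.3%) had the difference between the lines called at 8 h in the 22 h direction, beside 48.5% of all genes tested. Fold changes of opposite sign at 8 h were found for 401 of the 622 (64.5%, beside 45.6% of all genes). Calls in both lines with opposite signs were found for 67 of them (10.8%, beside 0.712%). The sign held best in LAPC4. There 510 of the 622 had the 22 h sign at 8 h (82%, beside 52.4% of all genes), 99 were already called (15.9%, beside 2.34%), and 0 of these had the other sign. The 1088 genes that moved in the same direction at 22 h were chosen by calls too. At 8 h their difference was called in the 22 h direction for 66.8%. Their LAPC4 sign held for 83.1%, LAPC4 was called for 20.1%, and fold changes of opposite sign were found for 25.4%. In VCaP 469 of the 622 opposite genes had the 22 h sign at 8 h, a share of 75.4% that lay near the 74.2% of all genes. Of the 622, 106 (17%) were called in VCaP at 8 h with the reverse sign. Among the 1088 shared genes 126 (11.6%) were. The share over all genes was not computed, and the 2 shares were not tested against each other.

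ANXA1 was 1 of these 106. At 8 h it was lower with R1881 in both lines, with log2 fold changes of -1.42 in VCaP (adjusted p 1.9e-41) and -0.57 in LAPC4 (adjusted p 1.2e-13), whereas at 22 h it was higher in VCaP. ETNK2 and LAMA3 ran the other way, with VCaP log2 fold changes of 0.73 and 0.25 at 8 h, both called, before the falls at 22 h. In LAPC4 ETNK2 and LAMA3 stood at 0.29 and 0.43 at 8 h. P2RY1, MYC and ZNF385B were opposite at both times, with 8 h log2 fold changes of -2.30 for MYC and -1.56 for ZNF385B in VCaP and of 1.04, 0.36 and 0.49 in LAPC4. STEAP4 and SEMA3C were also opposite at both times, at 5.94 and 2.48 in VCaP and at -0.35 and -0.20 in LAPC4. ACPP and CISH were lower with R1881 in VCaP at 8 h, at -0.48 and -1.11, and higher at 22 h.

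**Figure D3:**
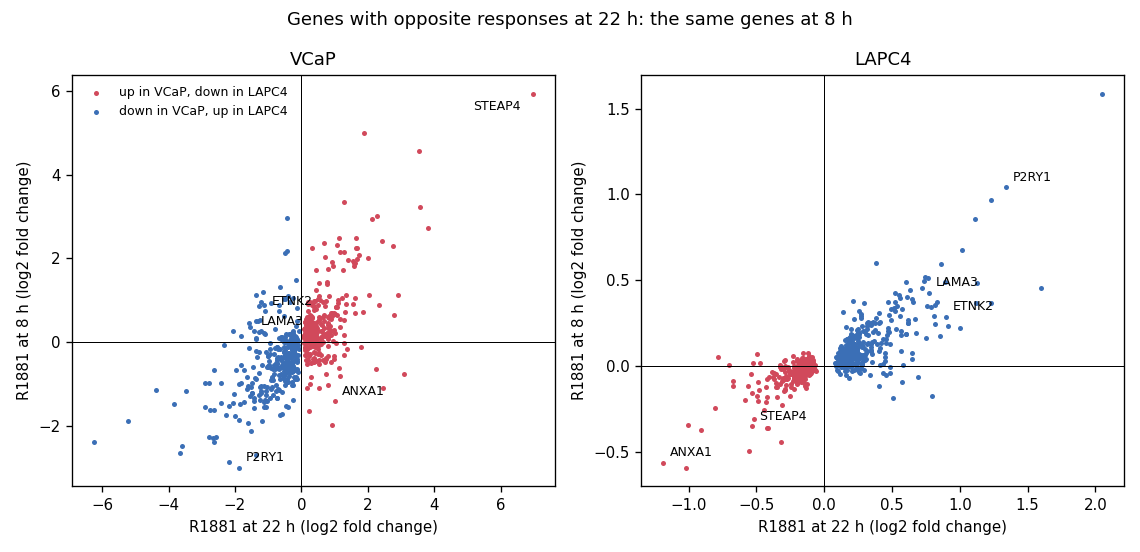
Each point is 1 of the 622 genes called in opposite directions at 22 h, with its log2 fold change at 22 h on the horizontal axis and at 8 h on the vertical axis, in VCaP (left) and LAPC4 (right). In VCaP 469 points keep their sign and ANXA1 lies at 1.02 and -1.42, while in LAPC4 510 points keep their sign and the 8 h values are smaller.

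The opposite genes were also measured in libraries in which R1881 was combined with the androgen receptor antagonist darolutamide. With 2 µM darolutamide (5 libraries per line), P2RY1 stood at 31.7 to 37.1 CPM in VCaP, between the DMSO and the R1881 ranges, and at 5.64 to 6.9 CPM in LAPC4, within the DMSO range. ANXA1 stood at 13.2 to 17.9 CPM in VCaP and 14.4 to 17.9 CPM in LAPC4, so that the lines were level again. MYC stood at 268 to 314 CPM in VCaP, short of its DMSO range, and at 9.88 to 11.9 CPM in LAPC4. STEAP4 remained raised in VCaP, at 42 to 48.3 CPM, and lay at 19.8 to 25.5 CPM in LAPC4. ST3GAL1 stood at 3.25 to 4.29 CPM in VCaP, within its R1881 range, and CISH at 3.77 to 4.48 CPM, while in LAPC4 they stood at 210 to 225 CPM and 2.05 to 3.25 CPM. Thus not all 12 genes returned toward DMSO in VCaP. These values share the R1881 and DMSO libraries with the comparison above and were not tested here.

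The genes that moved alike in both lines comprised 474 rises (2.86%) and 614 falls (3.7%). The response was called larger in VCaP for 779 of them (4.7%) and larger in LAPC4 for 42 (0.253%), while the difference was not called for 267 (1.61%). For 220 (1.33%) the 95% interval of the difference lay within 0.5 of 0 on the log2 scale, and these are called responses of like size. The rises had median log2 fold changes of 0.79 in VCaP and 0.27 in LAPC4, and the falls had medians of -0.87 and -0.25. Of the 1088 shared genes, 185 (17%) were called in both lines with the same sign at 8 h as well, beside 1.42% of all genes tested. In LAPC4, 170 of 474 shared rises (35.9%) and 49 of 614 shared falls (7.98%) were called at 8 h, and the 2 shares were not tested against each other.

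The 5 leading shared rises were ST6GALNAC1, CHRNA2, KLK4, KLK3 and MYBPC1. ST6GALNAC1, a sialyltransferase of mucin glycans (chromosome 17, 76624761 to 76643786), rose from 8.11 to 10.7 CPM (median 9.28) to 71.1 to 83.2 CPM (median 74.9) in VCaP. In LAPC4 it rose from 0.705 to 1.14 CPM (median 0.903) to 4.54 to 5.99 CPM (median 5.26). Neither line showed overlap, and the log2 fold changes were 3.04 ± 0.072 and 2.50 ± 0.11. KLK3, which encodes prostate-specific antigen, rose from a median of 20.6 to 207 CPM in VCaP and from 13.5 to 41.7 CPM in LAPC4, by 3.36 and 1.64 on the log2 scale. KLK4 rose by 2.04 ± 0.12 and 1.70 ± 0.13, and the difference between the lines was not called (adjusted p 0.0645, unadjusted 95% interval 0.0076 to 0.69). MYBPC1, a myosin-binding protein, rose by 2.69 and 1.56. Kallikrein genes are close paralogs, so reads can be divided between them in ways that the counting does not show.

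Shared falls were much larger in VCaP. LUM, which encodes the proteoglycan lumican, fell from 28.2 to 33.4 CPM (median 30.9) to 0.109 to 0.365 CPM (median 0.205) in VCaP and from 3.18 to 4.38 CPM (median 3.76) to 1.49 to 2.25 CPM (median 1.83) in LAPC4. The groups were clear of each other in both lines, and the log2 fold changes were -7.15 ± 0.14 and -1.03 ± 0.11. LUM is also a fibroblast marker. Of the others, COL1A1 had 7 to 28 reads in the VCaP and 4 to 24 in the LAPC4 libraries, COL1A2 had 0 in VCaP and at most 2 in LAPC4, and DCN had at most 7 in either, and their part in the result was not tested. MIR99AHG, the host transcript of a microRNA cluster, fell by 4.46 on the log2 scale in VCaP, and its value in LAPC4 was -0.84. LRRC31 stood at -2.27 and -0.80, C4orf32 at -1.47 and -0.82, and GRB14, an adaptor that restrains insulin receptor signalling, at -1.26 and -0.73. All 5 were called in both lines.

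A small set of 42 genes responded more strongly in LAPC4 although VCaP was the more responsive line. CHRNA2, a subunit of the nicotinic acetylcholine receptor, rose in LAPC4 from 0.423 to 1.02 CPM (median 0.621) to 14.9 to 21.8 CPM (median 19.7). In VCaP it started at 49.6 to 72 CPM (median 64.4) and reached 238 to 318 CPM (median 270). CHRNA2 had log2 fold changes of 4.74 ± 0.13 in LAPC4 and 2.15 ± 0.072 in VCaP, without overlap in either. HPGD, which inactivates prostaglandins, showed 2.48 in LAPC4 and 1.14 in VCaP. KLK2, a kallikrein, showed 2.51 and 1.48, the transcription factor ZBTB16 2.72 and 1.55, and ETS1 1.52 and 0.41. In the DMSO libraries 29 of the 42 genes were higher in VCaP than in LAPC4, and for these 5 the LAPC4 level with R1881 was below the VCaP level with R1881 except for ETS1, with medians of 4.49 and 3.07 CPM.

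Responses of like size were led by ENDOD1, an endonuclease domain protein, which rose from 209 to 226 CPM (median 218) to 484 to 602 CPM (median 522) in VCaP. In LAPC4 ENDOD1 rose from 51.5 to 62.7 CPM (median 62.2) to 132 to 158 CPM (median 146). The log2 fold change was 1.29 in each line, and the 95% interval of the difference was -0.12 to 0.13. MAP1B, a microtubule-associated protein, rose by 1.31 and 1.26 from nearly equal levels, with medians of 24.4 and 25.2 CPM with DMSO and 61.3 and 63.9 CPM with R1881. At 8 h, however, MAP1B stood at 3.44 in VCaP and at 0.75 in LAPC4. ALDH4A1, an enzyme of proline breakdown, rose by 0.95 and 0.88, and ZBTB7C by 0.84 and 0.97.

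A large set of VCaP responses had a LAPC4 fold change bounded near 0. For 6511 genes (39.3% of those tested, beside the 12873 called in VCaP), 3399 up (20.5%) and 3112 down (18.8%), VCaP was called, the difference was called and the 95% interval of the LAPC4 fold change lay within 0.25 of 0 on the log2 scale, and 371 of these also passed the test in LAPC4 at such a small size while 6140 did not. EMP1, an epithelial membrane protein, rose in VCaP from 0.51 to 0.963 CPM (median 0.827) to 19.9 to 24.7 CPM (median 21.7) and stayed at medians of 44.7 and 47.4 CPM in LAPC4. Its log2 fold changes were 4.83 ± 0.11 and 0.08 ± 0.065. WIPI1, a protein of autophagosome formation, had 4.03 and -0.01. MIR22HG had 3.88 and -0.04, and HES1, a target of Notch signalling, 3.82 and 0.02. For these 4 genes the VCaP level with R1881 came up from about 1 CPM toward the level that LAPC4 already had with DMSO, which was 44.7, 21.8, 13.2 and 25.5 CPM.

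Falls in VCaP with such a bounded LAPC4 response were led by IGFBP3, a binding protein of insulin-like growth factors. It went from 277 to 328 CPM (median 290) to 1.38 to 2.94 CPM (median 2.33) in VCaP, and had medians of 5.62 and 5.95 CPM in LAPC4. The log2 fold changes were -7.06 ± 0.085 and 0.06 ± 0.086. AMIGO2, an adhesion molecule, stood at -5.13 and 0.09, CRISPLD1 at -4.25 and -0.06, and FRAS1, an extracellular matrix protein, at -4.19 and -0.08.

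Responses of LAPC4 with a VCaP fold change bounded within 0.25 of 0 were found for 198 genes (1.19%), of which 100 rose (0.603%) and 98 fell (0.591%), and 69 of these passed the test in VCaP at that small size. ARHGEF26, an exchange factor of small GTPases (chromosome 3, 154121003 to 154257827), rose in LAPC4 from 55.2 to 62.7 CPM (median 57.8) to 109 to 122 CPM (median 115). In VCaP it stood at 190 to 221 CPM (median 199) with DMSO and 185 to 220 CPM (median 204) with R1881, with full overlap. The log2 fold changes of ARHGEF26 were 0.99 ± 0.037 in LAPC4 and 0.00 ± 0.034 in VCaP. ZNF649, a zinc finger gene of the KRAB family, showed 0.74 in LAPC4 and -0.07 in VCaP, where it had been called at 8 h with 1.14. ARHGAP28, a GTPase-activating protein, showed -0.56 and -0.01. NXPE3 showed 0.56 and 0.14, was itself called in VCaP and kept its place in this set in only 7 of 13 alternative analyses. At 8 h ARHGEF26, ARHGAP28 and NXPE3 were called in VCaP too, at 0.21, 0.56 and 1.45. In LAPC4 their 8 h values were 0.63, -0.06 (not called) and 0.41. The bounded VCaP response of these genes therefore holds for 22 h only.

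**Figure D4:**
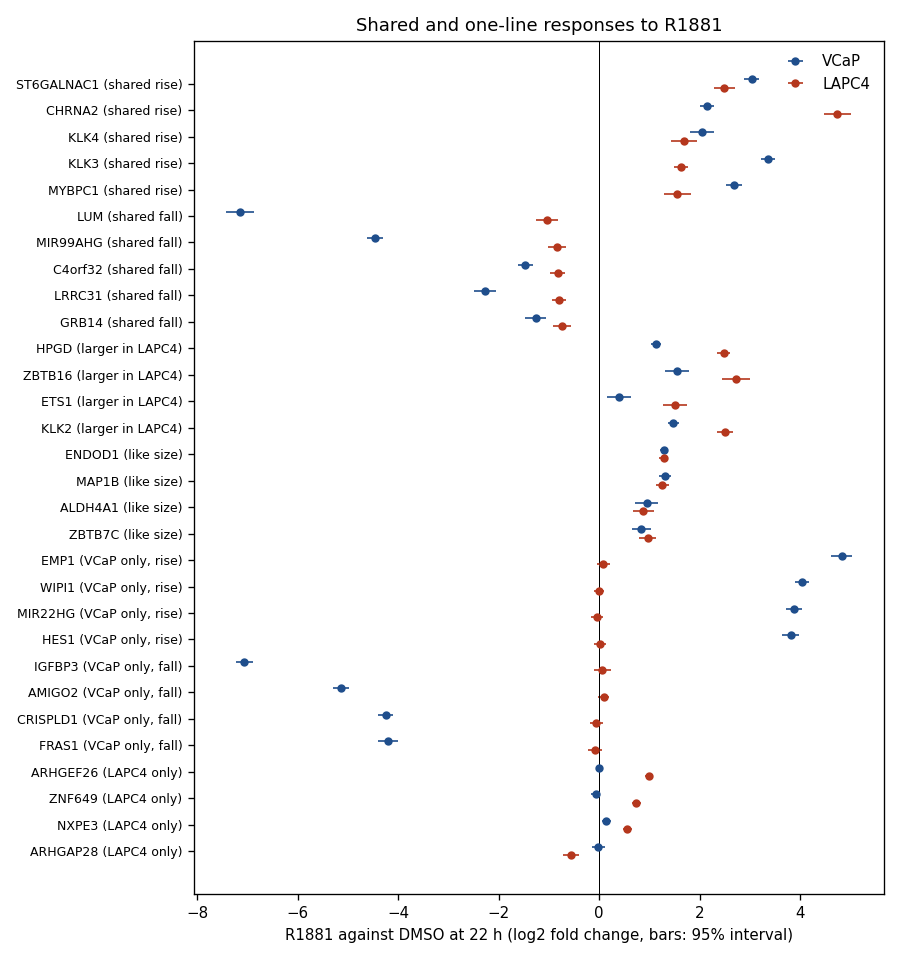
Points give the log2 fold change of R1881 against DMSO at 22 h in VCaP (blue) and LAPC4 (red), and bars the 95% intervals, for the 30 genes named as shared, larger in LAPC4, of like size or of 1 line. ENDOD1 lies at 1.29 in both lines, CHRNA2 at 4.74 in LAPC4 and 2.15 in VCaP, and IGFBP3 at -7.06 in VCaP and 0.06 in LAPC4.

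The proximal promoters of 3 genes are printed, with P2RY1 and ANXA1 opposite and KLK3 shared in response. KLK3 was picked after the search because its promoter held the motif marked below, so the 3 do not compare opposite with shared genes. Each run is the 250 bases before the RefSeq transcript start in GRCh38.p14, written 5′ to 3′ along the gene, and capitals mark the androgen receptor motif AGAACA, searched on both strands.
P2RY1 (chr3:152834881-152835130, + strand): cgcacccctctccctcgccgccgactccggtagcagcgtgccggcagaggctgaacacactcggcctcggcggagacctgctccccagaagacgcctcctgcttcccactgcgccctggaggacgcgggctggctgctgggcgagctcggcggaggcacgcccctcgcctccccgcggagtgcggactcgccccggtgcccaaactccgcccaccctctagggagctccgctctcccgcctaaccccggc
ANXA1 (chr9:73151615-73151864, + strand): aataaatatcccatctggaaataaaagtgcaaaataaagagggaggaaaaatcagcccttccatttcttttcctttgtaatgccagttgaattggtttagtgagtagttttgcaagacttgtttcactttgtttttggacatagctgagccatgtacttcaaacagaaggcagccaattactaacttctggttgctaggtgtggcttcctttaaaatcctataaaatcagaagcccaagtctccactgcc
KLK3 (chr19:50854665-50854914, + strand): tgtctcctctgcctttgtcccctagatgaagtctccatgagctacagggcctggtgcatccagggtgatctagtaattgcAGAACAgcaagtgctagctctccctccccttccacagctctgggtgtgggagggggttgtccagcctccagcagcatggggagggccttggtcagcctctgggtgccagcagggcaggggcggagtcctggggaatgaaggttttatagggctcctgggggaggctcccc
The KLK3 motif began 170 bases before the start, and the other 2 windows held none. The 6 promoters searched first held 0 copies. These were of the opposite genes ANXA1, SEMA3C, P2RY1 and ETNK2 and of the shared genes KLK4 and MIR99AHG, and KLK3 was added after the search. Of the 31 opposite, shared or one-line genes named above that had an entry, only KLK3, MYBPC1 and SLC9B2 held the motif. A RefSeq promoter could be matched to 9531 of the tested genes, and 7.17% of these held the motif while 0 held the full element. The share was 7.08% among genes up in VCaP and down in LAPC4, 6.75% among those moving the other way, 6.95% among shared genes, 7.06% among genes of VCaP only and 12.2% among those of LAPC4 only (12 of 98). The shares were not tested against each other, and a match to these letters says nothing about binding.

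Genes known to be induced by androgen rose in both lines for the most part, with larger values in VCaP. Of 54 tested, 49 rose and 4 fell in VCaP and 38 rose and 7 fell in LAPC4, with median log2 fold changes of 1.63 and 0.52 beside -0.05 and -0.01 over all genes. The difference between the lines was called for 47 (87%, beside 68.5%). Shared rises numbered 37, and 8 of the list responded more strongly in LAPC4. FKBP5, a chaperone of steroid receptors, rose from 76.7 to 88.2 CPM (median 81.9) to 3310 to 3880 CPM (median 3580) in VCaP and from 109 to 124 CPM to 274 to 313 CPM (median 298) in LAPC4. Opposite members were STEAP4, ACPP, LIFR, MSMB, MAF and TMEM87A, which rose in VCaP, and PPFIBP2, which fell there. LIFR, a cytokine receptor, had 2.75 in VCaP and -0.30 in LAPC4, and MSMB, a secreted protein of prostate epithelium, 2.78 and -0.70. FOLH1, prostate-specific membrane antigen, was listed as induced but fell in both lines, at -3.90 and -0.46.

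Androgen-repressed genes mostly fell in VCaP, with 13 of 15 down and 1 up, and 7 of the 15 fell and 1 rose in LAPC4. VCaP was called for 93.3%, LAPC4 for 53.3% and the difference for 86.7% of this list. Over all genes these shares were 77.7%, 11.9% and 68.5%. The medians were -1.76 and -0.20, and 6 fell in both lines, among them WNT5A at -1.81 and -0.45. UGT2B15 and UGT2B17, which inactivate androgens and share much of their sequence, fell in both at -6.83 and -6.23 in VCaP and at -0.71 and -0.62 in LAPC4. DDC, an enzyme of dopamine synthesis, was opposite, at -4.38 ± 0.12 in VCaP and 2.05 ± 0.28 in LAPC4, where it was scarce at 0.0421 to 0.266 CPM with DMSO and 0.339 to 0.891 CPM with R1881. SOX4, a lineage factor, was opposite in the other sense, at 0.18 and -0.26. Among 36 coregulators and prostate lineage factors, 20 rose and 11 fell in VCaP and 2 rose and 2 fell in LAPC4. VCaP was called for 86.1% and LAPC4 for 11.1% of them, beside 77.7% and 11.9% of all genes. GRHL1 stood at 1.29 and -0.22, and the pioneer factor FOXA1 at 0.11 and -0.16. Both pairs were called, but the FOXA1 groups overlapped in VCaP, from 767 to 847 CPM with DMSO and 840 to 889 CPM with R1881.

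Genes for ribosome assembly gave the largest block of opposite responses among the lists. Of 43 members, 34 fell and 2 rose in VCaP, while 19 rose and 0 fell in LAPC4, and 15 did both, beside 2.03% of all genes. The medians were -0.47 in VCaP and 0.15 in LAPC4, and the difference was called for 39 (90.7%, beside 68.5% of all genes). NOP56, a core protein of small nucleolar RNPs, fell in VCaP from 225 to 244 CPM (median 228) to 160 to 184 CPM (median 169). In LAPC4 NOP56 rose from 85.1 to 90.6 CPM (median 89.6) to 98.9 to 111 CPM (median 104), and neither line overlapped. POLR1E, a subunit of RNA polymerase I, stood at -1.62 and 0.20, WDR12 at -1.12 and 0.17, NCL, which encodes nucleolin, at -0.58 and 0.14, and DKC1, the pseudouridine synthase dyskerin, at -0.50 and 0.22. For POLR1E and WDR12 the DMSO and R1881 libraries overlapped in LAPC4. With replicates 6 and above only (2 DMSO and 5 R1881 libraries of LAPC4) only 1 of the 43 genes was called up in LAPC4.

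The cell cycle lists separated by phase. Of 45 genes of DNA replication and S phase, 32 rose and 0 fell in LAPC4, and 25 rose and 8 fell in VCaP, with 21 rising in both. LAPC4 was called for 71.1%, beside 11.9% of all genes, and VCaP for 73.3%, beside 77.7%. The difference was called for 68.9%, near the 68.5% of all genes. The medians of the 45 genes were nearly equal, at 0.16 in VCaP and 0.20 in LAPC4. CDC6, a licensing factor, had 1.16 and 0.22, and PCNA, the sliding clamp, 0.41 and 0.18. The opposite members RPA2, TYMS, DSCC1 and POLA1 fell in VCaP, at -0.32, -0.21, -0.34 and -0.11, and rose in LAPC4 by 0.13, 0.17, 0.18 and 0.16. DMSO and R1881 libraries overlapped in LAPC4 for RPA2, TYMS and DSCC1, and for DSCC1 in VCaP too. Only 2 members were opposite with only the 4 compared groups or with replicates 1 to 5, and 0 with replicates 6 and above. With replicates 6 and above only, 4 of the S phase genes were called up in LAPC4. Of 44 genes of G2 and mitosis, 39 fell and 2 rose in VCaP, while 3 rose and 0 fell in LAPC4, and all 39 called differences lay below 0. VCaP was called for 93.2%, LAPC4 for 6.82% and the difference for 88.6%, beside 77.7%, 11.9% and 68.5% of all genes. The LAPC4 count depended on the fit, since 15 of the 44 were called up there with the GC slope as a covariate and 21 with the replicate block and the GC slope, and opposite members went from 1 to 12 and 16. MKI67, the proliferation antigen, went from a median of 227 to 169 CPM in VCaP and from 195 to 240 CPM in LAPC4, where its groups overlapped. CDC25C, a phosphatase of mitotic entry, had -1.13 and 0.08, and the kinesin KIF2C -0.74 and 0.05.

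Of 15 CDK inhibitors, G1 cyclins and pocket proteins, 10 rose and 5 fell in VCaP and 3 rose and 2 fell in LAPC4. The difference was called for all 15 (100%, beside 68.5% of all genes). CDKN2B, an inhibitor of CDK4 and CDK6, was opposite at 1.62 and -0.36, and CDK4 itself opposite at -0.53 and 0.10. The DMSO and R1881 libraries of LAPC4 overlapped for both, and 0 members of the list were opposite without the filter on low counts, in either subset of replicates, or with the replicate block and the GC slope. CDKN1A, the inhibitor p21, had 1.96 in VCaP and -0.01 in LAPC4. CCND1, which encodes cyclin D1, rose in both, from medians of 258 to 502 CPM and of 168 to 206 CPM. Its log2 fold changes were 0.97 ± 0.022 and 0.27 ± 0.022.

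Genes of lipid synthesis and protein export were mostly called in VCaP, while their called share in LAPC4 was 12% for cholesterol genes and 13.3% for protein folding, close to the 11.9% of all genes, and 36.4% for fatty acid genes. In VCaP these shares were 96%, 100% and 100%, beside 77.7%. Among 25 genes of cholesterol synthesis and uptake, 24 rose and 0 fell in VCaP and 3 rose in LAPC4, with medians of 1.41 and 0.05 and 21 called differences. INSIG1, a sterol sensor, went from a median of 89.1 to 822 CPM in VCaP, where LAPC4 had 547 and 549 CPM. IDI1, an isomerase of the pathway, had 2.85 in VCaP and was not called in LAPC4 (adjusted p 0.995). Of 22 genes of fatty acid synthesis and activation, 16 rose and 6 fell in VCaP and 5 rose and 3 fell in LAPC4. ACSL3, an activating enzyme of long-chain fatty acids, rose by 3.56 in VCaP against -0.01 in LAPC4, whereas its relative ACSL1 was opposite at 0.43 and -0.24. SCD, the stearoyl desaturase, had 2.62 and 0.02.

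Of 45 genes of protein folding and secretion in the endoplasmic reticulum, 44 rose and 1 fell in VCaP and 4 rose and 2 fell in LAPC4. The difference was called for all 45 (100%, beside 68.5% of all genes). The medians were 1.47 and 0.01. SEC61A1, the translocation channel, rose from 169 to 194 CPM (median 176) to 508 to 552 CPM (median 536) in VCaP, while LAPC4 held 498 to 519 CPM (median 514) and 517 to 538 CPM (median 527). XBP1, a transcription factor of the unfolded protein response, had 0.99 and -0.10, and SEC62 0.61 and -0.13. Both were called opposite, but their LAPC4 groups overlapped, 0 members were opposite without the filter on low counts, and with replicates 6 and above only no member was called in LAPC4. Of 34 ATF4 stress and amino acid genes, 22 rose and 5 fell in VCaP and 7 rose and 2 fell in LAPC4, and 4 were opposite. VCaP was called for 79.4%, near the 77.7% of all genes, and LAPC4 for 26.5%, beside 11.9%. The difference was called for 76.5%, beside 68.5%. With replicates 1 to 5 only, 1 of the 34 was opposite and 3 were called in LAPC4. With replicates 6 and above only the numbers were 0 and 1. The 4 were STC2 at -1.43 and 0.19, the arginine transporter SLC7A1 at -0.18 and 0.67, VLDLR at 0.30 and -0.15 and the glutamine transporter SLC38A2 at 0.10 and -0.17.

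Signalling lists were mixed. The difference between the lines was called for 72% of WNT, 68% of interferon and 72.2% of ERK genes, near the 68.5% of all genes, and VCaP was called for 84%, 72% and 88.9%, beside 77.7%. Of 19 steroid targets shared with glucocorticoids, 11 rose and 7 fell in VCaP and 7 rose and 1 fell in LAPC4, with 7 shared rises and 0 opposite members. VCaP was called for 94.7% and LAPC4 for 42.1% of the 19, beside 77.7% and 11.9% of all genes. ERRFI1, a brake on the EGF receptor, had 3.09 in VCaP and -0.02 in LAPC4, and NFKBIA 1.12 and 0.09. Of 25 WNT genes, 8 rose and 13 fell in VCaP and 3 rose and 2 fell in LAPC4. The receptor FZD5 had 3.40 and -0.10, its relative FZD1 1.91 and 0.07, and the effector LEF1 was opposite at -0.14 and 0.21. Of 25 interferon and antigen presentation genes, 10 rose and 8 fell in VCaP and 0 rose and 4 fell in LAPC4. B2M, the light chain of class I antigens, had 1.62 and 0.02, HLA-B 2.18 and -0.32, and IRF1 was opposite at 0.47 and -0.49. HLA-B passed the test in VCaP only. With replicates 6 and above only, 0 members of the coregulator, WNT, interferon and aryl hydrocarbon receptor lists were opposite.

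Of 18 ERK feedback and immediate early genes, 8 rose and 8 fell in VCaP and 1 rose and 2 fell in LAPC4. FOSL2 was called opposite at -1.53 and 0.19, but its LAPC4 groups overlapped and 0 members were opposite with only the 4 compared groups or in either subset of replicates. PHLDA1 had -1.55 and -0.24, and SPRY1 -1.45 and -0.04. Only 5 neuroendocrine markers were measured, with 1 up and 3 down in VCaP (80% called, beside 77.7% of all genes) and 1 down in LAPC4. ENO2, a neuronal enolase, had -1.07 and -0.08, and SYP 0.88 and -0.22. All 5 targets of the aryl hydrocarbon receptor that were measured rose in VCaP, beside 35.8% of all genes. LAPC4 was called for 40% of the 5, beside 11.9% of all genes. TIPARP was called opposite at 1.90 and -0.25, and CYP1B1 was called up in both lines at 2.87 and 0.23. The LAPC4 groups of TIPARP and of CYP1B1 overlapped. NQO1 stood at 0.71 and 0.03 and was not called in LAPC4.

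**Figure D5:**
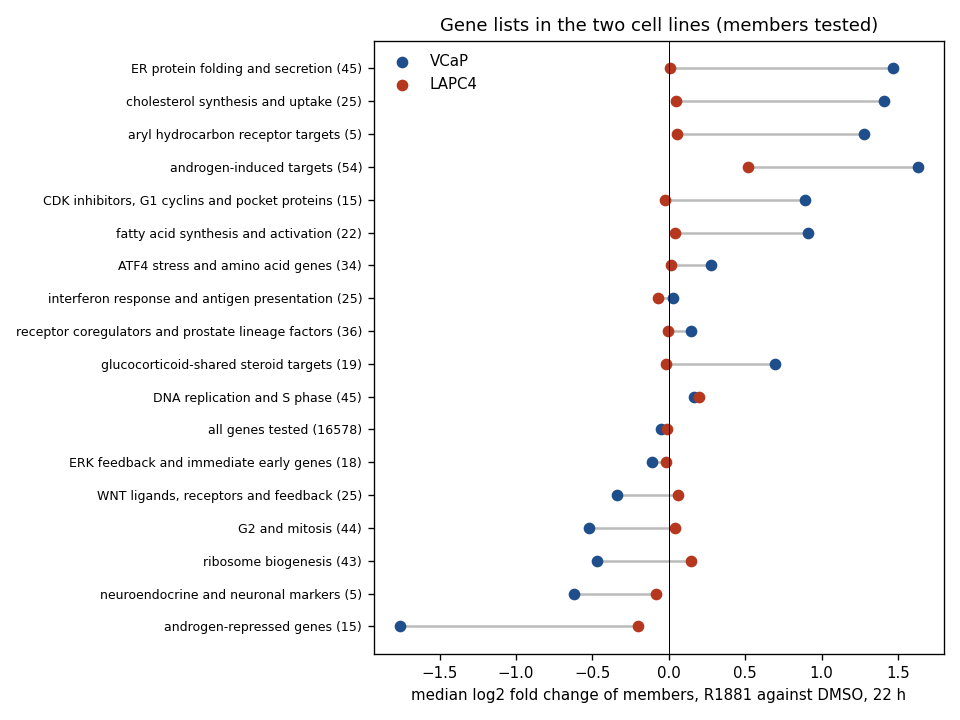
Points give the median log2 fold change of the tested members of each gene list, R1881 against DMSO at 22 h, in VCaP (blue) and LAPC4 (red), with the number of members tested in brackets. ER protein folding lies at 1.47 and 0.01, ribosome biogenesis at -0.47 and 0.15, and DNA replication at 0.16 and 0.20.

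The dependence of log2 CPM on gene GC content, a technical property of a library measured as a slope, had medians of -0.067 (VCaP DMSO), -0.058 (VCaP R1881), -0.056 (LAPC4 DMSO) and -0.05 (LAPC4 R1881) log2 CPM per percentage point, and the ranges of the groups overlapped. With this slope as a covariate 1348 genes were opposite and 1943 shared, including 616 of the 622 and 1063 of the 1088 given here.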

How the data were processed

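RNA-seq of VCaP and LAPC4 cells was analysed from 1 table of read counts per gene, which the authors deposited without normalization after alignment with STAR to GRCh38 and counting with featureCounts, as their processing notes name them. The versions of STAR and featureCounts, the annotation and the strand setting are not given in the sources used here, so genes that overlap, lie antisense or are nearly identical have uncertain counts. All 112 libraries in 16 groups of line, treatment and time were fitted together in edgeR 4.0.16 (R 4.3.3) with TMM normalization, glmQLFit and glmQLFTest, and calls required a p under 0.05 after Benjamini-Hochberg adjustment. The standard error is the size of the log2 fold change over the root of F, intervals are at 95% and unadjusted, and CPM values use the TMM factors.

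The members and the 17 gene lists were chosen with earlier results of these data known. Genes named are, above a mean log2 CPM of 1 in each line, the 6 opposite genes per direction and the 5 shared rises and 5 falls with the largest change in the weaker line, the 5 shared genes most in excess in LAPC4, the 4 of like size, the 4 rises and 4 falls of VCaP only and the 4 of LAPC4 only. Up to 3 members of each list were added, opposite ones first, then by smallest adjusted p, and any other gene was named with its values in view. Some genes that this rule takes are not reported here. GENCODE 44 gave the positions. The alternatives were DESeq2 1.42.0, other scalings, filters, sample sets, a replicate block and a GC slope. The fit was tested on simulated data.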

Additional observations from a re-analysis of the deposited data

Results flagged for a closer look

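The response to R1881 at 22 h differed between the lines by the interaction test for 11349 genes and for 83 of the 88 genes named. The values below are the log2 fold change in VCaP minus that in LAPC4, each with an adjusted p under 0.05, and they are given without an explanation. Opposite genes that rose in VCaP had ANXA1 2.20, SEMA3C 2.22, STEAP4 7.49, ST3GAL1 1.06, CISH 1.03 and ACPP 1.21. Opposite genes that fell in VCaP had P2RY1 -3.23, ETNK2 -1.99, ZNF385B -3.79, MYC -3.47, LAMA3 -2.21 and SLC9B2 -3.10. Shared rises had ST6GALNAC1 0.54, CHRNA2 -2.59, KLK3 1.73 and MYBPC1 1.13, shared falls LUM -6.12, MIR99AHG -3.62, C4orf32 -0.65, LRRC31 -1.48 and GRB14 -0.53, and genes larger in LAPC4 HPGD -1.34, ZBTB16 -1.17, ETS1 -1.11 and KLK2 -1.03. Genes of 1 line had EMP1 4.74, WIPI1 4.04, MIR22HG 3.92, HES1 3.79, IGFBP3 -7.12, AMIGO2 -5.23, CRISPLD1 -4.19, FRAS1 -4.11, ARHGEF26 -0.98, ZNF649 -0.81, NXPE3 -0.42 and ARHGAP28 0.55.

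Androgen-induced and androgen-repressed genes had LIFR 3.05, DDC -6.43 and SOX4 0.44. Coregulators and lineage factors had GRHL1 1.51, FOXA1 0.27 and SMARCA2 -1.28. Cell cycle genes had RPA2 -0.45, TYMS -0.37, DSCC1 -0.52, MKI67 -0.67, CDC25C -1.21, KIF2C -0.79, CDK4 -0.63, CDKN2B 1.98 and CCND1 0.70. Lipid genes had INSIG1 3.24, IDI1 2.85, ACSL1 0.67, ACSL3 3.57 and SCD 2.60. Genes of protein folding, amino acid supply and ribosome assembly had XBP1 1.09, SEC62 0.75, SEC61A1 1.53, STC2 -1.62, SLC7A1 -0.85, VLDLR 0.45, POLR1E -1.83, WDR12 -1.29 and NOP56 -0.67. Steroid and interferon genes had FKBP5 4.07, ERRFI1 3.11, NFKBIA 1.04, IRF1 0.97, B2M 1.61 and HLA-B 2.50. Signalling genes and the remaining markers had LEF1 -0.35, FZD5 3.50, FZD1 1.84, FOSL2 -1.72, PHLDA1 -1.31, SPRY1 -1.41, ENO2 -0.99, SYP 1.10, TIPARP 2.14, CYP1B1 2.64 and NQO1 0.68.

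A single library stood far from the others of its group, by Dixon's criterion on log2 CPM, in 12 of 352 combinations of gene and group or 3.41%, where chance gives about 1 in 20. VCaP DMSO replicate 4 was the lowest for ANXA1 (3.83) and PHLDA1 (1.92) and the highest for SLC7A1 (7.17). LAPC4 DMSO replicate 7 was the lowest for STEAP4 and CRISPLD1, at 4.15 each. LAPC4 R1881 replicate 9 was the lowest for CHRNA2 (3.91) and the highest for NQO1 (8.44). The remaining 5 were VCaP libraries, with DMSO replicate 2 lowest for ARHGAP28 (4.50), DMSO replicate 1 highest for CDC25C (5.55), R1881 replicate 1 lowest for CCND1 (8.93), DMSO replicate 6 highest for NOP56 (7.93) and DMSO replicate 8 highest for TIPARP (3.94).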

How the results depend on the processing

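Of 1144 differences between the lines for the 88 named genes under 13 alternatives, 1138 kept their direction and their side of the threshold, 3 lost the call, 3 gained it and 0 reversed. CISH, ST6GALNAC1 and GRB14 lost it with replicates 6 and above only, and KLK4 gained it with filterByExpr and with the GC slope, with and without the replicate block. The number of differing genes stayed within 1.5 times under all 13 settings, from 8357 to 12468. The subsets of replicates hold fewer libraries and gave fewer calls. With replicates 1 to 5 only, 311 genes were opposite, 598 shared and 90 of LAPC4 only. With replicates 6 and above only, the counts were 79 opposite, 270 shared, 2657 of VCaP only and 16 of LAPC4 only, and 19 S phase genes differed in place of 31. The GC slope as a covariate gave 1348 opposite, 1943 shared and 465 of LAPC4 only. Requiring an absolute log2 fold change above 0.25 in both lines left 207 opposite and 532 shared genes, and above 0.5 left 63 and 193.

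For each library, the deviation of log2 CPM from the group mean was taken gene by gene. These deviations correlated above 0.1 between same-numbered DMSO and R1881 libraries in 3 of 8 VCaP and 3 of 7 LAPC4 pairs, with values up to 0.274 and 0.419. Libraries of different numbers were not compared, so whether replicate numbers pair the libraries is not settled. The main fit used no block. With the replicate number as a block, 756 genes were opposite (512 of the 622), 1300 shared and 11416 differed, and the opposite genes that rose in VCaP went from 285 to 438. The replicate block with the GC slope gave 980 opposite, 308 of LAPC4 only and 11513 differing genes. The cause of the larger counts was not tested. Library totals of 12951648 to 23180161 reads limit genes near 1 CPM. In simulated counts 41% of true differences of 0.3 and 91% of those of 1 on the log2 scale were recovered. Only 100 genes of each size were changed there, whereas 68.5% of genes were called here. The adjustment depends on how many genes change, so these shares do not give the recovery in the comparison itself.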

Other observations

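A run of neighbouring zinc finger genes on chromosome 19 around ZNF649 was looked at after its values were seen. Of 11 tested genes within 200 kb on either side of ZNF649 and ZNF350, 8 rose in LAPC4 at 22 h and 0 fell, beside 5.65% of all genes that rose. ZNF350 had 0.81 in VCaP and 0.92 in LAPC4, ZNF613 0.53 and 0.91, ZNF615 0.62 and 0.65, ZNF614 0.40 and 0.53, and ZNF432 0.32 and 0.33 on the log2 scale. ZNF577 had 0.03 in VCaP and 0.52 in LAPC4, and ZNF841 had 0.62 and 0.24. In VCaP, 6 of the 11 rose and 1 fell. ZNF616 and ZNF836, at the end of the window, were not called in either line. Zinc finger genes of this family resemble each other, so that reads may be shared between them.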
